A study of Caenorhabditis elegans with 2 samples.

Results

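The genes of the CDC-48 ATPase and its cofactors described here are cdc-48.1, cdc-48.2, ufd-1, npl-4.1 and npl-4.2 of the nematode Caenorhabditis elegans. These 5 of the 19973 protein-coding genes on the nuclear chromosomes were chosen by gene symbol for their shared role. The choice was made with the ChIP-seq peaks at these genes known, so the values of the peaks at their 5' ends are a description and were not tested. The binding of ARID-1, which carries a DNA-binding domain of the ARID family, was measured by chromatin immunoprecipitation and sequencing (ChIP-seq). The worms were of strain RW12194, in which a TY1, EGFP and 3xFLAG tag was inserted by CRISPR at the arid-1 gene itself, on chromosome V. Whole L4 larvae were collected at 47 hours, from cultures synchronised by starving the L1 larvae that hatched after bleaching, and anti-GFP antibody was used for the immunoprecipitation. There are 2 biological replicates from different biosamples and 1 group, so no conditions are compared. An untagged strain or control library was not analysed here, and since whole worms were used, the cells in which a site was bound are not known.

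CDC-48, called p97 or VCP in mammals, is a ring-shaped AAA ATPase that pulls ubiquitin-tagged proteins out of membranes, chromatin and protein complexes, often before they are degraded by the proteasome. UFD-1 and NPL-4 form the cofactor that brings the ATPase to ubiquitin-tagged substrates, for example in degradation from the endoplasmic reticulum (ER). In C. elegans the ATPase and NPL-4 are each encoded by a pair of similar genes, and CDC-48 with UFD-1 and NPL-4 is known to take the replicative helicase off chromatin.

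ARID-1 had a peak upstream of cdc-48.1 with one of the highest promoter signals of the data set, and the other members had no peak at their 5' ends that passed the threshold. A peak was placed by its summit, the position of its highest signal, and counted at a gene when the summit lay within 500 bp of the annotated 5' end. In the authors' conservative list, which holds 2330 peaks that repeat between the replicates at an irreproducible discovery rate (IDR) of 0.01, 1 of the 5 members had such a summit. Of all protein-coding genes, 1134 had one (5.68%). Signal is the authors' own value for each peak, on a scale the sources used here do not define.

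The gene cdc-48.1 (WBGene00007352) codes for one of the copies of the ATPase and lies on the minus strand at chrII:10560036-10563407 on the ce11 build, which is the WBcel235 assembly. The peak spanned chrII:10563480-10563666, 187 bp in the intergenic DNA upstream of the gene, 259 to 73 bp before its 5' end. The summit lay 163 bp upstream. The peak is printed here in the direction of the gene, together with the bases at the same distance from the 5' ends of cdc-48.2 (chrII:8138237-8138423, plus strand) and npl-4.1 (chrII:5631092-5631278, plus strand), which had no such peak. The stretch at npl-4.2 (chrII:5622630-5622816, plus strand) is identical to that of npl-4.1, and the stretch at ufd-1 overlaps the 3' UTR of the next gene and is named only. Letters in capitals mark matches, on either strand, to a set of short motifs named in the text that follows. The bases were read from the RefSeq genome sequence of the same assembly.
cdc-48.1: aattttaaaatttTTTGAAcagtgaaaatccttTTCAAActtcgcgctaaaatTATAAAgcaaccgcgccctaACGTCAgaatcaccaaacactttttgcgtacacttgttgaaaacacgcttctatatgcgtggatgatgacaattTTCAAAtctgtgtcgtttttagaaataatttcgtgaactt
cdc-48.2: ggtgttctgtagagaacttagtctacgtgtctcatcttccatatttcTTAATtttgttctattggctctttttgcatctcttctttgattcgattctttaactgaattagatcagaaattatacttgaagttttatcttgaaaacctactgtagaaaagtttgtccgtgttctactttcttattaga
npl-4.1: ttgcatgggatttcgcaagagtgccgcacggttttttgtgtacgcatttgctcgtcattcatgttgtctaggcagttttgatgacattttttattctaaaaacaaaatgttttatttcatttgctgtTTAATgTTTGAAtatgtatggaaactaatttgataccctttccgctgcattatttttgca

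The signal of the cdc-48.1 peak was 236 in replicate 1 and 230 in replicate 2, a mean of 233 ± 3.90 (SD, n = 2). Both replicates were high, and the replicates were close to each other. The log2 ratio of replicate 2 to replicate 1 was -0.03, while over all promoter peaks its median was 0.11 with an SD of 0.43 across peaks, and 6.57% of promoter peaks had a smaller ratio in absolute size. The mean signal was 5.86 times the median of 39.7 over the 928 promoter peaks that had a signal in both replicates. It ranked 5 of 928 by the mean, 5 in replicate 1 and 6 in replicate 2, and 2 of 622 when windows of 250 bp were used. The peak was in the thresholded lists of both replicates, with its summit 163 bp upstream of the 5' end in replicate 1 and 156 bp upstream in replicate 2.

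The −log10 of the IDR, read from a column of the ranked lists that has no header, was 5 at cdc-48.1. Of the 944 nuclear promoter peaks, 99 had at least that value, cdc-48.1 among them (10.5%). It was also 5 in the other ranked list of the series and in that of each replicate, so 5 may be the upper limit of the column. The peak was narrow, at 187 bp against a median width of 270 bp, and 7.52% of promoter peaks were narrower. Its place relative to the gene was common: 77.3% of promoter summits were on the upstream side of the closest 5' end, at a median distance of 194 bp, and 41.5% of these were nearer than the summit at cdc-48.1. No other protein-coding gene had its 5' end within 500 bp of the summit, as was the case for 720 of the 944 promoter peaks (76.3%). Among these peaks with a single gene, cdc-48.1 ranked 4 by mean signal. Upstream, the next gene is C06A1.6, on the same strand, whose near end is 704 bp from cdc-48.1. Within 500 bp of its 5' end there was no summit in the ranked list behind the conservative list. The other ranked list of the series and that of replicate 1 each held a summit there, with a −log10 IDR of 0.234 and 0.0644.

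**Figure D1:**
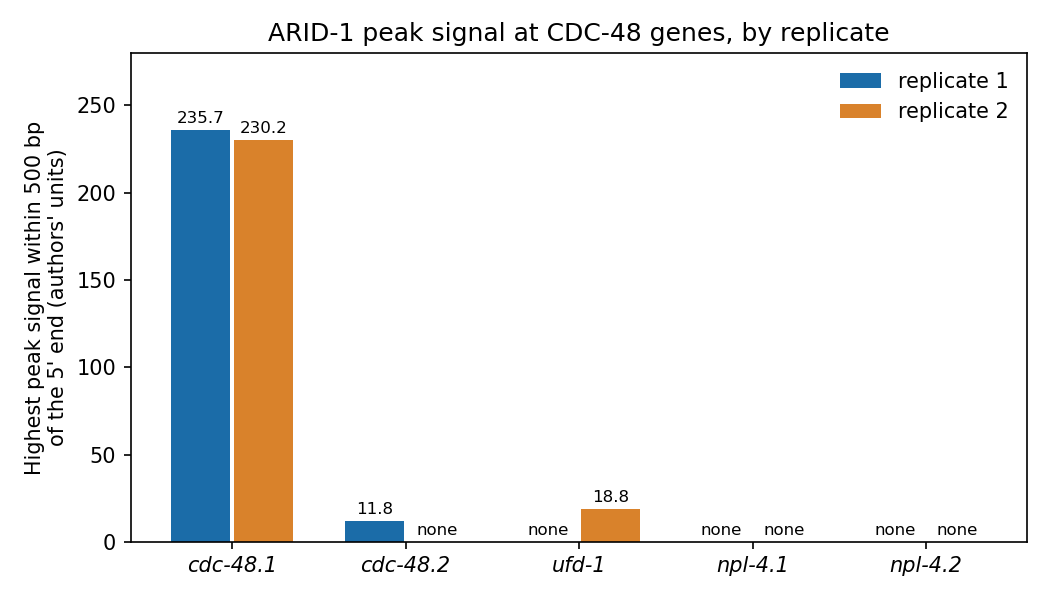
Highest signal of a ranked peak with its summit within 500 bp of the 5' end of each member (vertical axis, authors' units, from 0), for replicate 1 (blue) and replicate 2 (orange), with "none" where the ranked list has no such peak. The bars at cdc-48.1 reach 236 and 230, while cdc-48.2 has a bar of 11.8 in replicate 1 alone and ufd-1 one of 18.8 in replicate 2 alone.

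The promoter peaks most like that of cdc-48.1 in mean signal over the 2 replicates were, with a single exception, those of ribosomal protein genes. The next above were rpl-35 (249 ± 11.6, SD, n = 2), the peak shared by rpl-15 and K11H12.8 (263 ± 21.3) and tasp-1 (297 ± 24.1). The next below were the peak shared by rpl-20 and Y17G9B.5 (223 ± 14.3), rps-1 (183 ± 0.07) and the peak shared by hsr-9 and rps-19 (174 ± 2.12). The names rpl and rps mark proteins of the large and small ribosomal subunits. The mean of cdc-48.1 was 10.5 above that of the rpl-20 peak, where the SDs of both peaks combine to 14.8, and 16.3 below that of rpl-35, where they combine to 12.3. It was 50.3 above that of rps-1, where they combine to 3.91. These peaks were picked for their closeness in mean signal, so the differences are a description, and with 2 replicates the SDs are themselves imprecise.

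**Figure D2:**
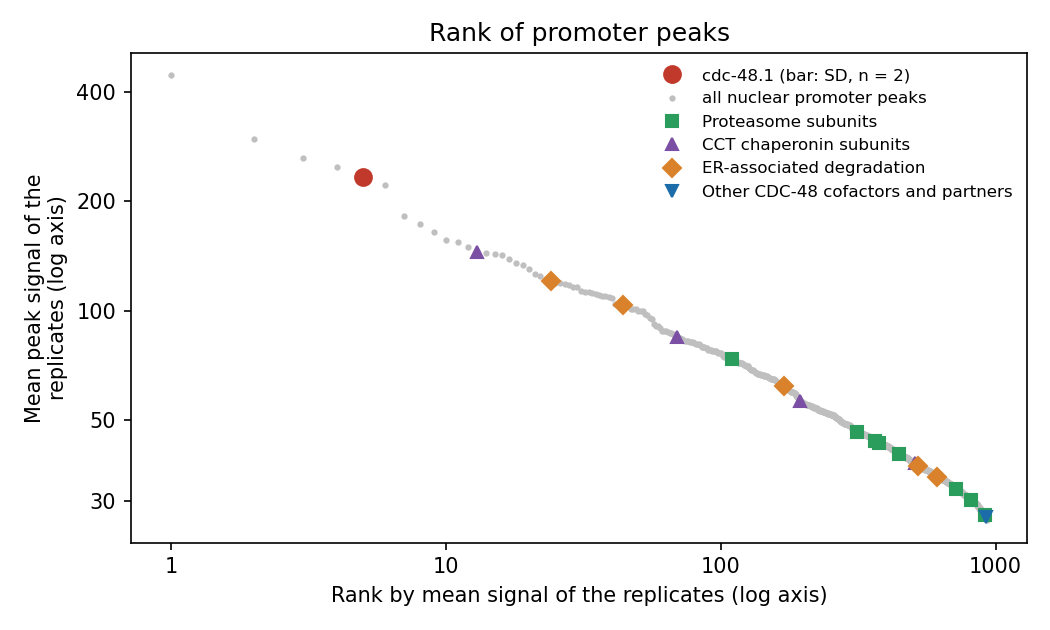
Mean signal of the replicates (vertical, log axis, authors' units) against rank (horizontal, log axis) for the 928 nuclear promoter peaks with a signal in both replicates (grey points), with cdc-48.1 in red and the peaks of 4 lists of related genes in colour. The red point stands at rank 5, above every coloured point, and its SD of 3.90 is smaller than the marker.

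The bases up to 100 bp on either side of the cdc-48.1 summit had a GC content of 32.3%, below the median of 43.3% over all promoter peaks, and 4.45% of promoter peaks had a lower one. The 6 peaks nearest in rank ranged in GC content between 38.8% and 54.7%, a comparison added after the values were seen. Within the 300 bp that run from 250 bp before to 50 bp after the 5' end, the GC content was 34% at cdc-48.1, 36% at cdc-48.2, 32.0% at ufd-1, 33.0% at npl-4.1 and 32.7% at npl-4.2. The median of such promoters over all genes was 34.3%, so cdc-48.1 is not low among promoters as such.

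The motifs were searched on both strands. In the sequence of cdc-48.1 above, the capitals mark TTTGAA, a word of the cell cycle homology region, starting 246, 226 and 112 bp upstream of the 5' end, TATAAA, the TATA box, at 206 bp, and TGACGT, a word bound by CREB and XBP-1-like factors in other species, at 186 bp. No match overlaps another there. TTTGAA was held by 35.3% of promoter-peak windows of that size around the summit and by 62.5% of all promoters of 300 bp. A window with at least 3 matches to it was found at 9 of the 944 promoter peaks (0.953%), a count made after the matches at cdc-48.1 were seen. TATAAA was held by 14.4% of the summit windows and 37.9% of promoters, and TGACGT by 9.22% and 10.3%. The other motifs searched had no match in the summit window of cdc-48.1. These were the heat shock element GAANNTTC, held by 11.9% of the promoter-peak windows, and the word TGATAA of factors of the GATA family, held by 9.64%. The E-box CACGTG was held by 5.19% of them and the repeat word GAGAGA by 28.9%. The E2F-like word GCGGGA was held by 8.58%. The word ATTAA, which some ARID domains bind in other species, was held by 36.5%.

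In the stretches of cdc-48.2 and npl-4.1 shown, the capitals mark ATTAA 212 bp upstream of cdc-48.2 and, at npl-4.1 and npl-4.2 alike, ATTAA at 132 bp and TTTGAA at 126 bp upstream. At ufd-1 the stretch of 187 bp held CACGTG at 143 bp and ATTAA at 224 bp upstream. The promoters of 300 bp hold more bases. That of ufd-1 had 2 matches to ATTAA, 1 to CACGTG and 1 to TTTGAA. That of cdc-48.2 had 1 match to ATTAA and 1 to GAGAGA. Those of npl-4.1 and npl-4.2 each had 1 to ATTAA and 1 to TTTGAA, and that of cdc-48.1 had 3 to TTTGAA, 2 to TATAAA and 1 to TGACGT. Of all promoters of 300 bp, ATTAA was held by 65.8%, GAGAGA by 21.8% and CACGTG by 5.82%. A match to such a short word is a description of the letters, and binding to these words was not measured.

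Within cdc-48.1 itself the ranked list of the series held weaker peaks. One, with a signal of 44.7 and a −log10 IDR of 0.66, in the ranked list behind the conservative list and 1.57 in the other ranked list of the series, had its summit 486 bp downstream of the 5' end and overlapped the snoRNA gene C06A1.9 in the first intron (chrII:10562952-10563064). Small nucleolar RNAs (snoRNAs) guide the modification of other RNAs. The second snoRNA gene of cdc-48.1, C06A1.8 in intron 3, was overlapped by 2 ranked peaks with a −log10 IDR of at most 0.69. The signal at the promoter was thus 464 in the combined list, against 44.7 at the first snoRNA, and the 2 peaks are separate intervals.

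The gene cdc-48.2 (WBGene00008053, chrII:8138496-8141230, plus strand) codes for the other copy of the ATPase. Its window held 2 ranked peaks of the series, with signals of 16.5 at 98 bp downstream and 8.44 at 345 bp upstream of the 5' end. Both had a −log10 IDR of 0.0775, the lowest value in that list. The same value was the best one at 31.8% of the 10013 genes whose window held ranked summits but none of the conservative list. Replicate 1 had a single ranked summit in the window, with a signal of 11.8 at 461 bp downstream, and replicate 2 had none. The signal of cdc-48.2 therefore did not repeat between replicates, and no mean is given.

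The proteins encoded by cdc-48.1 and cdc-48.2 have 809 and 810 residues, and 89.8% of the aligned residues are identical. Their coding sequences are identical at 76.6% of aligned bases. In the 500 bp upstream of the 5' ends, the longest run of bases that the pair share is 10 bp, and between the 187 bp stretches shown above it is 8 bp. All 952 words of 50 bases in the window around either 5' end occur once in the genome, so a read of that length from either window matches a single place.

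The gene ufd-1 (WBGene00006733, chrIV:12329408-12330890, minus strand) codes for the cofactor subunit UFD-1. Its window held 2 ranked peaks of the series, with a signal of 27.5 at 228 bp upstream and of 12.5 at 79 bp downstream of the 5' end. The better −log10 IDR was 0.158, which is higher than the best value of 34.3% of the genes with ranked summits only, whose median was 0.221. Replicate 1 had no ranked summit in the window. Replicate 2 had a signal of 18.8 at 87 bp downstream and of 7.72 at 230 bp upstream. Upstream, the gene F19B6.1 on the same strand ends 85 bp before ufd-1. The ranked peak of the series at 228 bp upstream, which had the better −log10 IDR, lies inside F19B6.1. The nearest conservative summit to ufd-1 was 41174 bp upstream, close to the 5' end of wdr-46.

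The genes npl-4.1 (WBGene00019120, chrII:5631351-5633284, plus strand) and npl-4.2 (WBGene00019121, chrII:5622889-5624959, plus strand) code for the other subunit of the cofactor. Neither had a summit within 500 bp of its 5' end in any of the 8 lists, ranked or thresholded. The nearest conservative summit was 18256 bp away from npl-4.1 and 23203 bp away from npl-4.2. Their 5' ends are 8462 bp apart, and the encoded proteins, of 529 residues each, are identical at 99.1% of residues.

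The sequence around these 5' ends is less unique in the genome than that around the 5' end of cdc-48.1. The npl-4 copies are identical over an unbroken run of 1339 bp, of which 1325 bp lie upstream of the 5' end. Of the 952 words of 50 bases in the window of either gene, 50 occur once in the genome (5.25%), against 100% at cdc-48.1, cdc-48.2 and ufd-1. Over all genes the median was 100%, and 1.14% of genes had a lower share than the npl-4 pair. With words of 36 bases the share at either npl-4 gene was 3.73%, and with words of 100 bases 11.1%. Reads from such sequence match both copies, and the sources used here do not say how the authors treated them.

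In the ranked list behind the conservative list, the peak next upstream of either npl-4 gene lay beyond the identical run. The near edge of that peak was 1338 bp upstream of npl-4.1, where its signal was 13.0, and 1415 bp upstream of npl-4.2, where its signal was 20.8. Both had the lowest −log10 IDR of the list. In the other ranked list of the series and those of the replicates, the nearest summit to npl-4.1 was 2688 to 2727 bp upstream. At npl-4.2 the other ranked list of the series held the same peak. Replicate 2 had its nearest summit to npl-4.2 1497 bp upstream, and replicate 1 had its nearest 1760 bp downstream. The divergent neighbours, F59E12.6 upstream of npl-4.1 and eif-3.L upstream of npl-4.2, have their 5' ends 400 and 406 bp away and inside the identical run. Neither had a ranked summit in its window, and 5.25% of the words there were unique in both. Over all genes, ranked summits were found at 9 of the 262 genes with at most 10% of unique words in the window (3.44%), against 57.1% of the 16095 genes with unique words only. That split was made after the values at npl-4 were seen. Whether ARID-1 is bound at the npl-4 promoters cannot be told from these lists. Whether the repeated sequence is the reason for the empty windows was not tested.

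**Figure D3:**
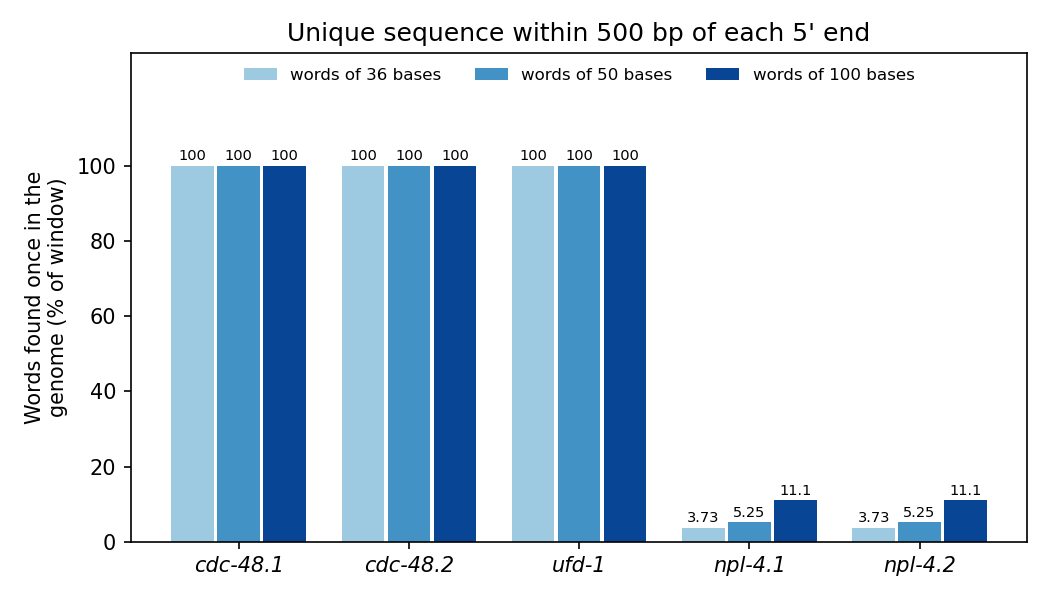
Share of the words within 500 bp of each member's 5' end that occur once in the genome, both strands counted (vertical axis, percent of the words of the window), for words of 36, 50 and 100 bases (light to dark bars). The bars of cdc-48.1, cdc-48.2 and ufd-1 are at 100%, and those of npl-4.1 and npl-4.2 range between 3.73% and 11.1%.

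Counted over the ranked lists, which also hold peaks that do not repeat, 3 of the 5 members had a summit in the window in the list of the series (cdc-48.1, cdc-48.2 and ufd-1), against 55.8% of all genes. In replicate 1 there were 2 members (cdc-48.1 and cdc-48.2), against 38.5% of genes, and in replicate 2 there were 2 (cdc-48.1 and ufd-1), against 40.2%. Of all genes, 44.2% had no ranked summit in the window, as the npl-4 genes had none. A ranked summit is therefore the common case, and those at cdc-48.2 and ufd-1 do not set them apart from other genes. Each peak of the conservative list had a −log10 IDR of at least 2, but 95 further ranked peaks with such a value were not in that list, and the sources used here do not say why. The member in the list, cdc-48.1, had 5, and the nearest outside, ufd-1, had 0.158.

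The other ends of the genes were examined after the values were seen. Within 500 bp of the 3' end, 1 of the 5 members had a conservative summit, against 4.57% of all protein-coding genes. All 5 had a summit in the ranked list behind the conservative list, against 58.0%. That at npl-4.1 had a signal of 5.54 and the lowest −log10 IDR of the list, and no other ranked list held a summit there. The conservative summit was at cdc-48.2, 57 bp past its 3' end and over the stop codon of ints-11, a gene on the opposite strand whose end overlaps that of cdc-48.2. Its signal was 26.3 in replicate 1 and 29.4 in replicate 2 (27.9 ± 2.22, SD, n = 2), below the median of promoter peaks. The ranked peaks behind these values had their summits 58 bp past the 3' end in replicate 1 and 198 bp past it in replicate 2. The summit of replicate 2 lies outside the conservative peak. Their −log10 IDR was 0.37 and 1.71, and neither was in the thresholded list of its replicate. Because the ends overlap, that peak cannot be assigned to cdc-48.2 or to ints-11.

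At the 3' end of cdc-48.1 the replicates differed. The ranked peak there had its summit within 11 bp of the annotated end in the list of the series and in each replicate, with a signal of 17.2 in replicate 1 and 53.9 in replicate 2. It passed the threshold in the list of replicate 2 and in the other thresholded list of the series, and in neither the conservative list nor that of replicate 1. Its −log10 IDR was 1.01 in the ranked list behind the conservative list and 2.67 in the other ranked list of the series. The promoter peak of the same gene was 13.7 times as high in replicate 1 and 4.27 times as high in replicate 2. A ranked peak near the 3' end of ufd-1, 114 bp inside the gene, had a signal of 18.3 in replicate 1 and 19.6 in replicate 2. Its −log10 IDR was 0.94 in the list of the series, where the best at the 5' end was 0.158. In replicate 2 the order was reversed, with 0.144 at that peak and 0.269 at the 5' end. Replicate 1 had 0.151 at that peak and no ranked summit at the 5' end. Another ranked peak of replicate 1 within 500 bp of the 3' end had a signal of 30.8 and a −log10 IDR of 0.147.

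**Figure D4:**
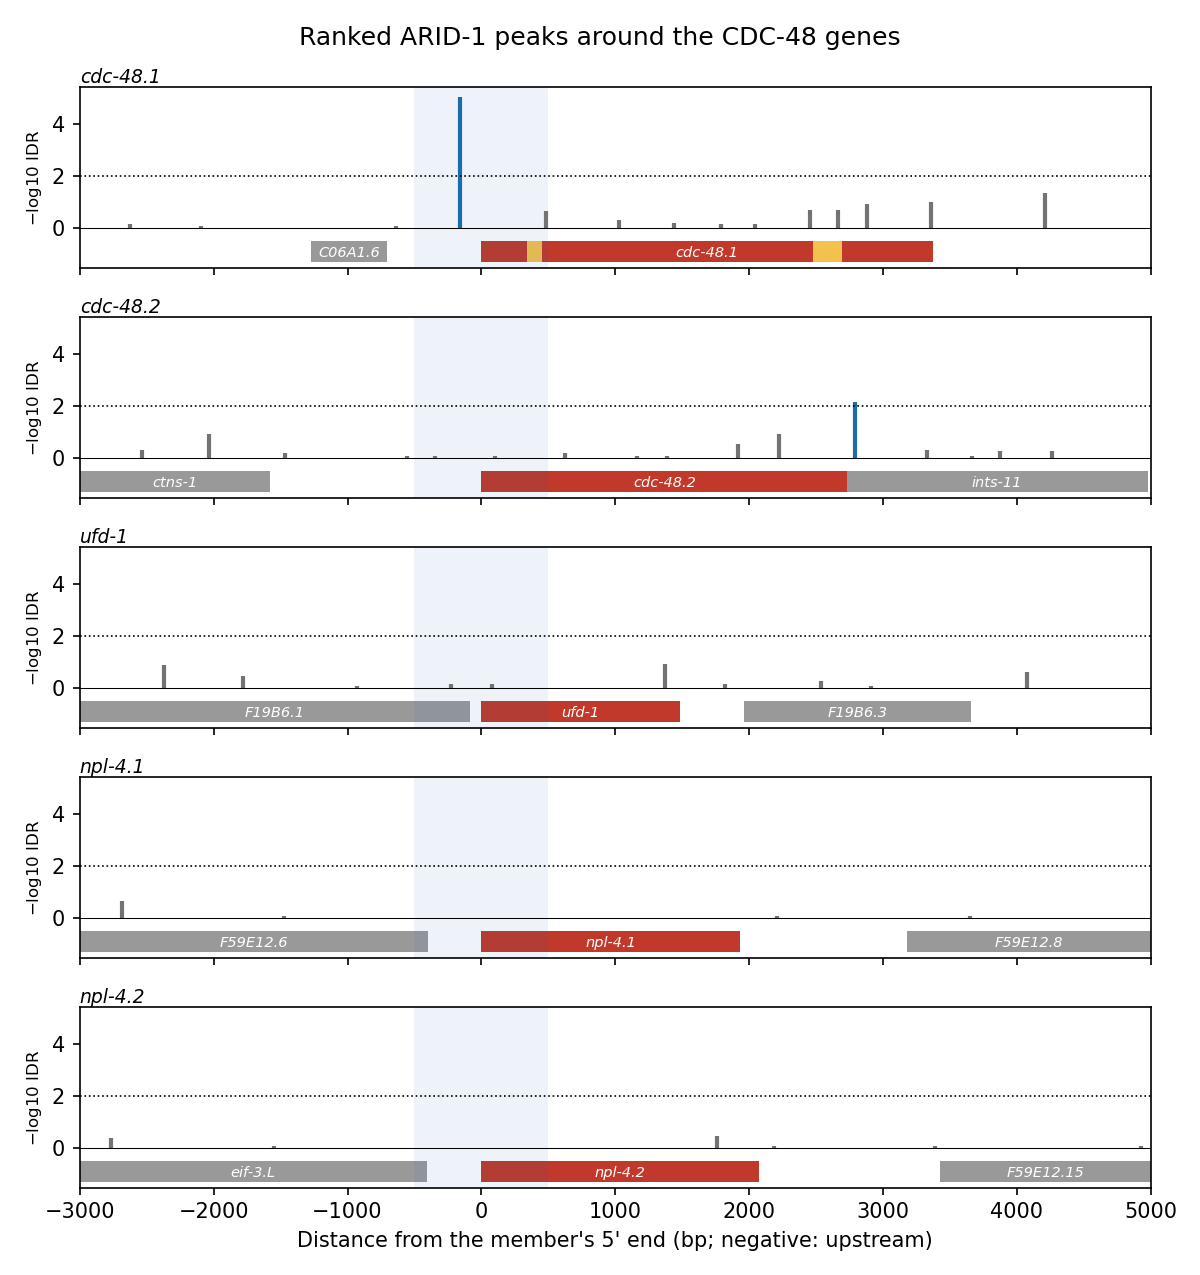
Ranked peaks of the series around each member, one panel per gene, placed by the distance of the summit from the 5' end (horizontal, bp, downstream to the right). Line height is the −log10 IDR (vertical), blue at or above a value of 2 (dotted line) and grey below it, the shaded band is the window of 500 bp on either side, and the boxes are the member (red), its snoRNA genes (yellow) and the neighbouring genes (grey). Only cdc-48.1 has a blue line in its band, that of cdc-48.2 stands past its 3' end, and the bands of npl-4.1 and npl-4.2 are empty.

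The proteins that work with CDC-48 were described with lists of related genes. Of 11 other cofactors and partners of CDC-48, 1 had a conservative summit at its 5' end: ufd-3, which codes for a WD-repeat protein that binds CDC-48, with a signal of 27.1 ± 1.62 (SD, n = 2). That is lower than the 233 of cdc-48.1 and than the median promoter peak. In the thresholded list of each replicate alone 0 genes of that list had one, and in the other thresholded list of the series 2 did. Of the rest of that list, which holds the UBX-domain genes and the deubiquitinase gene atx-3, 8 genes had ranked summits only and 2 had no ranked summit. A summit can lie within 500 bp of more than 1 gene, and a gene that shares a peak is named with it.

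Among 16 genes of ER-associated degradation and the ER stress response, 5 had a summit. By mean signal the highest was hsp-3, an ER chaperone of the BiP type, with 119 in replicate 1 and 123 in replicate 2. The next was ubc-6, a ubiquitin-conjugating enzyme of the ER membrane, whose peak is shared with aka-1, with 122 in replicate 1 and 85.8 in replicate 2, so that its signal was above that of hsp-3 in replicate 1. The peak of rnf-121, a ubiquitin ligase gene, is shared with C16C10.4 and had 62.2 ± 21.1. The stress sensor atf-6 had 36.5 in replicate 1 and 38.6 in replicate 2, and the stress sensor pek-1 had 35.0 ± 6.47 (SD, n = 2 each). The count was 3 with windows of 250 bp and 3 in replicate 1 alone.

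Of 14 genes for substrates and partners of CDC-48 in chromatin and replication, 3 had one: mcm-4, a helicase subunit (42.5 ± 9.22), lrr-1, a substrate receptor of a CUL-2 ubiquitin ligase (31.6 ± 8.72), and psf-1, a subunit of the GINS complex, whose peak is shared with R53.4 (29.6 ± 2.78). In either replicate alone the count was 1. The mean signal of cdc-48.1 was higher than each of these.

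Among 32 proteasome subunits, to which CDC-48 delivers substrates, 8 had a summit, with a median of 41.9 over their mean signals. The highest mean was that of the peak shared by rpn-3 and hsp-110, with 43.1 in replicate 1 and 105 in replicate 2. The rest were rpn-9 (shared with T06D8.9), pas-4 (shared with rpb-3), rpn-10, rpt-6, pbs-1 (shared with K08D12.3), pbs-7 (shared with F39H11.1) and pas-1. In replicate 2 alone 4 of the subunits had a summit, and in replicate 1 alone 2 did. Of 26 other AAA ATPases, 5 had one: atad-3 of mitochondria (84.4 ± 12.5), the proteasome ATPase rpt-6 (40.5 ± 13.6), ruvb-1, shared with tofu-1 (40.0 ± 2.25), ruvb-2 (37.4 ± 5.86) and the mitochondrial protease gene ymel-1 (33.3 ± 2.27). In replicate 1 alone 2 genes of that list had one. Of the 8 subunits of the CCT chaperonin, which folds actin and tubulin, 4 had one, each at a peak shared with another gene: cct-8 with Y55F3AR.2 (145 ± 29.2), cct-1 with mig-5 (85.0 ± 7.41), cct-7 with T10B5.4 (56.7 ± 1.84) and cct-5 with F25F2.1 (38.1 ± 11.3). All 4 CCT summits lay over 250 bp from the 5' end, and 0 were counted with windows of 250 bp or when a summit was given to the nearest 5' end alone. Counted once each, 25 genes of these other lists had a summit (24.8% of those found), against 5.68% of all protein-coding genes, and 15 and 13 had one in the thresholded lists of replicate 2 and replicate 1 alone. The mean signal of cdc-48.1 was above that of each of the 25. The lists were drawn up with earlier results of these data known, so the share is given without a test.

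**Figure D5:**
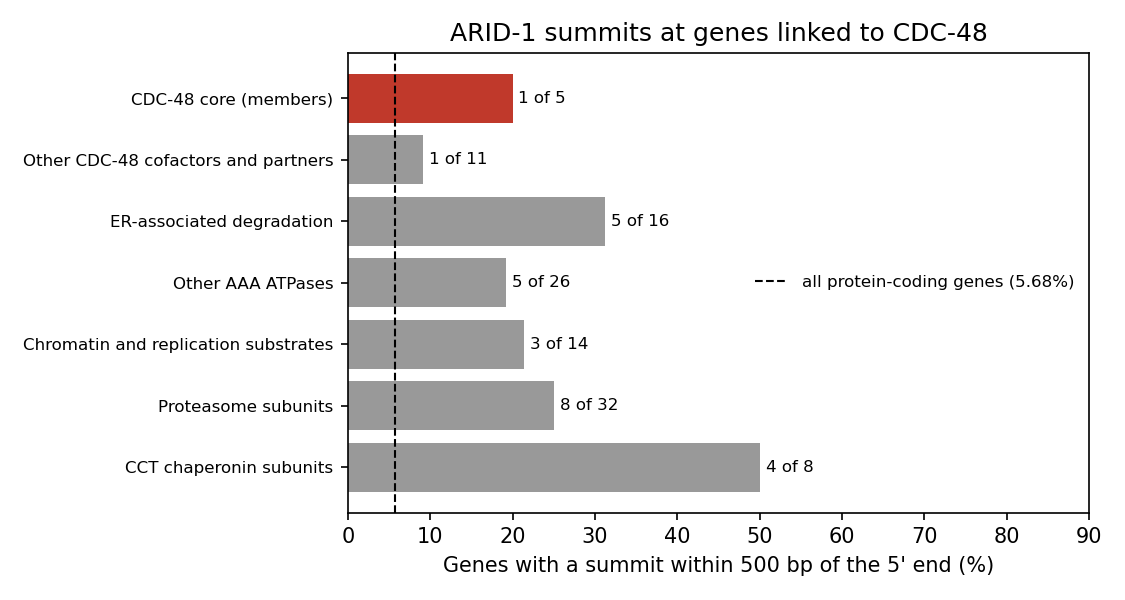
Share of the genes of each list with a conservative summit within 500 bp of the 5' end (horizontal axis, percent, from 0), with the number of such genes of those found beside each bar. The members (red) have 1 of 5, the other lists (grey) range between 1 of 11 and 4 of 8, and the dashed line marks the 5.68% of all protein-coding genes.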

How the data were processed

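ARID-1::EGFP ChIP-seq was described from 8 peak lists on the ce11 build, per the labels: a ranked and a thresholded list of each replicate, and 2 of each kind made from both replicates, per the deposited file notes. The authors' lists give a signal for each peak, on an unstated scale, and the ranked lists deposited give a value taken here as the −log10 of the IDR. The files have no header, and that reading rests on the file type and on the thresholded lists of the series. Every peak of those lists had at least 2 in its ranked list. The same reading was carried over to the ranked lists of the replicates. The sources used here do not give the aligner, peak caller or read filters, and depth is unknown. The ranked lists of the series hold 4 columns of signal per replicate or part, without names, which were not used.

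All 2330 conservative peaks had a −log10 IDR of 2 or more in 1 ranked list of the series. The other thresholded list, with 2244 peaks, was found likewise in the other ranked list. Genes were taken from Ensembl release 115. A replicate's signal at a peak is that of its highest ranked peak overlapping by at least 1 bp. Because of trans-splicing, transcription can start upstream of an annotated 5' end. Words of 50 bases were counted on both strands of the whole genome. Proteins were translated from the longest annotated coding sequence and aligned globally. Scripts ran in Python 3.11.15 with NumPy 2.4.6, pandas 2.3.3, SciPy 1.17.1 and Biopython 1.88, and were tested on simulated peaks and sequences.

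With 1 group there was no test. The members and lists were chosen with earlier results of these data known. Genes named are the members, their neighbours, genes that share their peaks, the 3 promoter peaks next above and below in mean signal, and every listed gene with a conservative summit. The genes fidg-1 and cdc-45 of the lists were not found by symbol. Alternatives were the other list, windows of 250 and 1000 bp, transcript 5' ends, nearest 5' end only, single replicates, and words of 36 and 100 bases.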

Additional observations from a re-analysis of the deposited data

How the results depend on the processing

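The count of 1 member with a summit at its 5' end, cdc-48.1, was the same in each of the 7 alternatives tried for it. The share of all genes was 3.52% with windows of 250 bp, 7.72% with windows of 1000 bp and between 3.02% and 3.04% in single replicates. In single replicates the genes of the other lists with a summit numbered 13 to 15. They numbered 17 with windows of 250 bp, 31 with windows of 1000 bp and 20 with the nearest 5' end only. The CCT genes fell to 0 of 8 with windows of 250 bp and with the nearest 5' end only. The signal of cdc-48.1 was 464 in the series list, on the scale of that list. Its rank was 2 of 622 with windows of 250 bp, which leave out peaks farther from a 5' end, and 5 to 6 in single replicates. The mean share of unique words over the members was 64.4% with words of 100 bases, against 62.1% with 50. The cause of these shifts was not tested beyond what each setting leaves out. Depth is unknown, so a missing peak at cdc-48.2 or ufd-1 says only that none passed in these lists. No paired analysis was possible because there is only 1 group.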
